A study of Homo sapiens and Mus musculus with 66 samples.

Results

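HCT116, a human colorectal cancer cell line, was compared across mitosis by the regions called at or near the nuclear lamina in G2 cells and in cells that had just returned to G1. A G2 region is an interval of the deposited G2 consensus list, and a 90m G1 region is an interval of the list for cells 90 min after release from nocodazole. There were 430 G2 regions covering 618 Mb and 204 90m G1 regions covering 527 Mb, out of 1925 regions in the lists of 5 sorted HCT116 stages. A G2 region was counted as called again when it shared at least 1 bp with a 90m G1 region.

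The 8 samples behind both lists, of 66 in the series, were, for each of 2 replicates per stage, 1 library of input DNA and 1 of DNA bound to streptavidin. The assay was lamin-B1 cTSA-seq, in which an antibody to lamin-B1 brings horseradish peroxidase to the lamina, the enzyme deposits biotin on nearby chromatin, and biotin-bearing DNA is pulled down and sequenced. G2 cells were sorted by DNA content from an asynchronous culture that received no drug, and this gate holds mitotic cells too. The 90m G1 cells were held with nocodazole, a microtubule poison, for 16 h by the labels (the methods of the study state a longer block), collected by mitotic shake-off, replated and sorted for G1 DNA content. Drug exposure, shake-off and cell cycle stage therefore differed together, and their shares in any difference cannot be told apart. One list per stage was used, with region starts and ends only. These lists hold no signal, depth or replicate values and allow no test between stages, so all values describe 1 list set against another, and the 95% intervals cover counting over regions, windows or genes, which are not independent of their neighbours.

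The nuclear lamina is a meshwork of A-type and B-type lamins under the inner nuclear membrane, and lamin-B1 stays tied to that membrane through its farnesyl tail. In interphase it holds long, gene-poor and AT-rich stretches of chromatin known as lamina-associated domains. The lamina comes apart when the envelope breaks down in mitosis, and it is rebuilt on the surface of the chromosomes as daughter nuclei form.

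Base composition differed between sequence in both lists and sequence in 90m G1 only, and 1 stretch of 300 bases is shown for each of these 2 kinds. Each stretch has the median GC and the median number of CpG dinucleotides of the 300-base blocks of its region, overlaps no annotated exon, and is given on the plus strand of hg19 with CpG in capitals. The first, chr5:163841401-163841700, comes from chr5:159900001-167700000, the longest stretch found in both lists. It has 37% GC and 2 CpG, lies in an intron of the long noncoding RNA gene LINC03000, and is 895 kb from the nearest protein-coding gene, MAT2B. The second, chr2:236639401-236639700, comes from chr2:230100001-243199373, the longest 90m G1 stretch that no G2 region covered. It has 46.3% GC and 4 CpG and lies in an intron of AGAP1.
In G2 and 90m G1: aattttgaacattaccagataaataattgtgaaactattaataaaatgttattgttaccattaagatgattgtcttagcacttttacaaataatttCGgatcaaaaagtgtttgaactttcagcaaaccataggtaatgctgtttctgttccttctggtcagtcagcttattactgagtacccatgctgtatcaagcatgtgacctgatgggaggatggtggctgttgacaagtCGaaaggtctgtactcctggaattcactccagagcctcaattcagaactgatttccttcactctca
In 90m G1, outside G2: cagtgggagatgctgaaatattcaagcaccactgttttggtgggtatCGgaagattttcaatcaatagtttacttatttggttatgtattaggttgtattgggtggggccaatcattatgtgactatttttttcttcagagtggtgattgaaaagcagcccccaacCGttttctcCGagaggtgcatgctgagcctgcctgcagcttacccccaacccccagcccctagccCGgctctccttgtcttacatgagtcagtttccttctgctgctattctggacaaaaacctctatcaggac
The region of the first sequence had 37.5% GC, 6.99 CpG per kb and 10 protein-coding genes, and that of the second 46.6% GC, 15.5 CpG per kb and 123 protein-coding genes. Chosen for length, the first region is low in GC for its kind. Windows of 100 kb in both lists had a median of 39.9% and a lower quartile of 37.9%. Windows in 90m G1 only had a median of 45.5%, so the 2 regions differ more than the medians do. The longest G2 region that was not called again, also on chromosome 5, had 35.1% GC, 6.06 CpG per kb and 4 protein-coding genes.

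Of the 430 G2 regions, 153 were called again at 90 min, a share of 35.6% (Wilson interval 31.2 to 40.2%). Among them, 109 were covered whole by 90m G1 regions and 44 were covered partly, while 277 held no called window. With at least 80% of the region required, 119 regions remained, or 27.7%. By sequence, 31.6% of the G2 base pairs were called at 90 min, against a background of 17% of all 30970 genomic windows of 100 kb and 14.5% of the 22493 windows with sequence that no G2 region covered. The share of the 90m G1 list that lay inside G2 regions was 37.1%. Set against the other sorted stages, the 90m G1 list held by far the smallest part of the G2 regions, since the 180m G1 list held 81.2% of G2 base pairs, the G1 list from asynchronous cells 91.5% and the S list 94.8%.

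Regions called again lay nearer to the chromosome ends. Distance was taken from the region or window centre to the nearest end. On the 5 acrocentric chromosomes, whose short arms are largely unassembled, only the long arm end counted. The median distance was 13.99 Mb (interval 10.9 to 17.5 Mb) for the 153 regions called again and 47.6 Mb (39.8 to 53.2 Mb) for the 277 regions that were not. Regions covered whole had a median of 10.9 Mb and regions covered partly one of 24.3 Mb. The ranges between the quartiles did not overlap, from 6.55 to 25.1 Mb for regions called again and from 26.3 to 70 Mb for the others. The plot of all G2 regions shows both classes together with their GC.

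**Figure D1:**
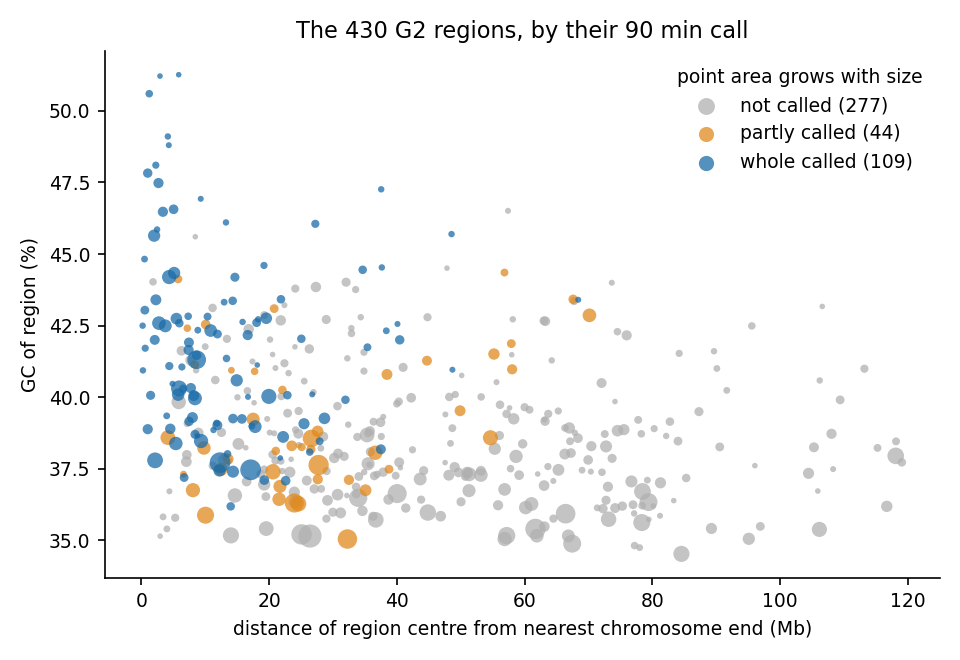
Each point is 1 of the 430 G2 regions, with the distance of its centre from the nearest chromosome end in Mb on the x axis, its GC in percent on the y axis, and an area that grows with its size. The 109 regions covered whole gather at the left and reach the highest GC, and the 44 covered partly lie farther in, with a median of 24.3 Mb. The 277 not called spread from 1.83 to 119 Mb. Their GC runs from 34.5 to 46.5%, beside 35.0 to 44.4% for those covered partly.

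In windows of 100 kb the share called fell step by step with distance. Of 168 G2 windows within 2.5 Mb of an end, 96.4% were called at 90 min, and between 2.5 and 5 Mb the share was 91.8% of 257 windows. It was 72.9% between 5 and 10 Mb, 58.6% between 10 and 20 Mb and 23.6% between 20 and 40 Mb. Between 40 and 60 Mb it was 10.7%, and of the 1453 G2 windows farther in only 18 were called, or 1.24%. Windows outside G2 regions fell in the same way, from 60.8% within 2.5 Mb to 0.413% beyond 60 Mb, and they lay below the G2 windows in each of the 7 distance classes. The gap was widest near the ends as a difference, 35.6 percentage points within 2.5 Mb, and widest as a ratio between 40 and 60 Mb, where G2 windows were called 4.81 times as often as others.

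**Figure D2:**
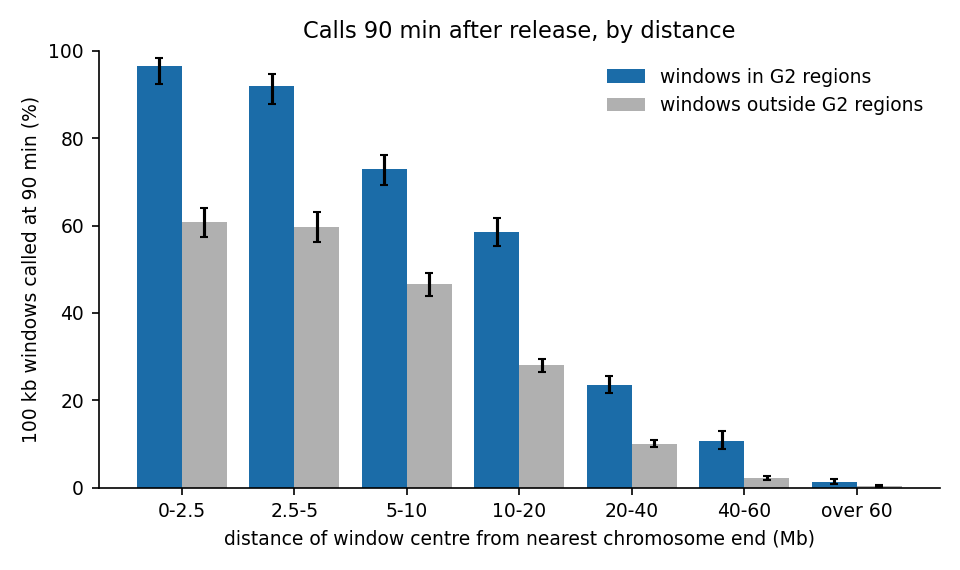
Bars give the share of 100 kb windows called at 90 min in percent, on the y axis, by distance of the window centre from the nearest chromosome end in Mb, on the x axis, with 95% Wilson intervals. In G2 regions the share runs from 96.4% at the ends to 1.24% beyond 60 Mb, and outside G2 regions from 60.8% to 0.413%.

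Taking 20 Mb as the limit, 1408 of 1993 G2 windows near an end were called, or 70.6% (68.6 to 72.6%), against 40.6% of 6293 windows outside G2. Beyond 20 Mb, 547 of 4187 G2 windows were called, or 13.1% (12.1 to 14.1%), against 4.38% of 16200. The limit itself moved the far share by over 1.5 times, to 21.3% with 10 Mb, 6.73% with 30 Mb and 5.40% with 20% of the chromosome length, and the near share stayed above it each time. By chromosome, near G2 windows were called more often than far ones on 19 of 24 chromosomes, equally often on 4 (none in either) and less often on 1, chromosome 13. Near the ends, G2 windows exceeded the windows outside G2 on 18 chromosomes, equalled them on chromosomes 19 and 21, which had no call, and fell below them on chromosomes 5, 13, 17 and 22. Beyond 20 Mb, G2 windows exceeded the windows outside G2 on 14 chromosomes and equalled them on 6. They fell below them on 4, chromosomes 6, 12, X and Y, so the pooled far excess did not hold on every chromosome.

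Regions called again had a higher GC than the others. The median was 40.8% (40.01 to 41.46%) in the 153 regions called again and 38.01% (37.7 to 38.5%) in the 277 that were not. Window by window the share called rose with GC, from 5.44% of 1452 G2 windows with at most 36% GC to 22.3%, 38.2%, 55.4% and 63.4% in the classes between, and to 81.8% of 242 windows over 45%. Windows outside G2 followed the same order at a lower level, from 0.155% to 34.0%.

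GC and distance were themselves related, with a Spearman correlation of -0.34 over the 430 regions, which share chromosomes and borders. The share called was therefore read by GC inside each distance class. Within 10 Mb of an end it went from 24.5% in the lowest GC class to 97.2% in the highest, between 10 and 20 Mb from 30.8% to 90%, and between 20 and 40 Mb from 2.84% to 52.6%. Beyond 40 Mb none of 737 G2 windows with at most 36% GC was called, which allows a share of up to 0.519% (the upper bound of the Wilson interval), while 36.7% of the 30 windows over 45% were. Within 20 Mb, 20 chromosomes had at least 5 G2 windows with over 38% GC and at least 5 at or under it. The windows with over 38% GC were called more often on 11 of them. On the other 9 all or none of both kinds were called, so the shares were equal. At the level of whole regions the contrast was absent in 1 class, between 20 and 40 Mb, where the median GC was 38.4% in 40 regions called again and 38.5% in 82 others.

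**Figure D3:**
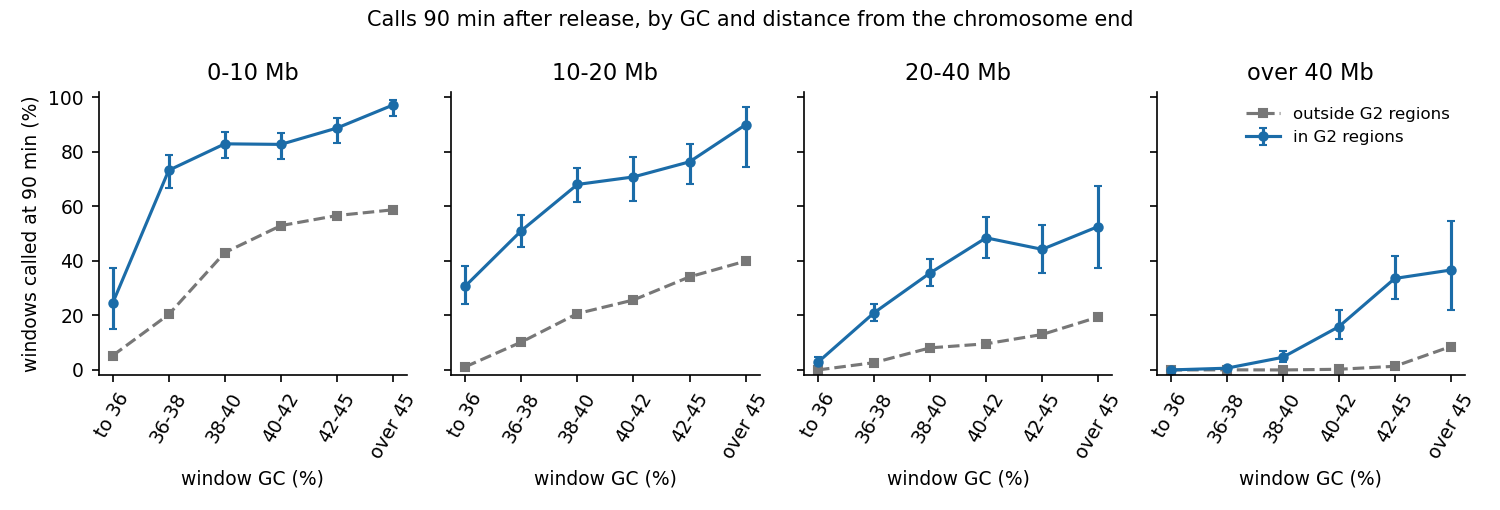
In 4 panels, by distance from the chromosome end, the share of 100 kb windows called at 90 min in percent is plotted on the y axis against window GC in percent on the x axis, for windows in G2 regions (circles, 95% Wilson intervals) and outside them (squares). The G2 line climbs in each panel, from 24.5% to 97.2% within 10 Mb and from 0 to 36.7% beyond 40 Mb, and drops between neighbouring classes only at 40 to 42% GC within 10 Mb and at 42 to 45% between 20 and 40 Mb.

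Size ordered the regions only weakly. Regions called again had a median of 1.2 Mb (0.9 to 1.4 Mb) and the others one of 0.9 Mb (0.8 to 1.0 Mb). The share of regions touched by a call grew with size, from 28.9% of 83 regions of up to 0.3 Mb to 32.6%, 38.96% and 44.9% of 49 regions over 3 Mb. A longer region meets a 1 bp rule more easily, and the share of base pairs called showed no such order, at 31.8%, 29.6%, 35.2% and 28.6% in the same 4 classes. Over the 430 regions, the Spearman correlation of the share of a region called was -0.59 with distance, 0.44 with GC, 0.44 with CpG density, 0.09 with genes per Mb and 0.09 with size.

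The chromosomes differed widely. The share of G2 base pairs called again ran from 0 to 55.9%, with a median of 27.6%, and was highest on chromosomes 12 (55.9%), 7 (51.5%), 5 (51.0%) and 1 (50.0%). On chromosomes 17, 19, 21 and 22, with 6, 7, 8 and 2 G2 regions, no G2 window was called. Chromosome 13 came next with 3.83%, from 1 of its 14 regions. The 16 chromosomes over 100 Mb had 136 of 343 regions called again, or 39.7% (34.6 to 44.9%), and the 8 shorter ones 17 of 87, or 19.5% (12.6 to 29.1%). Within 20 Mb of an end the gap was wider, 84.4% of 1528 G2 windows on long chromosomes and 25.4% of 465 on short ones. Windows outside G2 showed it as well, at 55.4% and 9.93%.

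Most ends were called throughout or not at all. Of 39 ends with G2 windows inside 20 Mb, 18 had every such window called, 916 windows in all, and 8 had none called, 220 windows in all. The ends without a call were those of 13q, 17p, 17q, 18p, 19q, 20p, 21q and 22q. The other 13 ends, with 857 windows, were called in part. Some ends held few windows, such as 2 on 7p and 3 on 11p, both called throughout, and 6 on 19q. Pooled over the same ends, the windows outside G2 went the same way, with 66.2% called at the ends that were called throughout, 36.6% at those called in part and 6.03% at those without a call. G2 windows at the fully called ends had a median GC of 39.6% and a median distance of 8.56 Mb, and at the ends without a call 38.6% and 12.3 Mb. On the 15 chromosomes with G2 windows near both ends, the shares were equal on 7, where all or none of these windows were called. The long arm end had the higher share on the other 8. On chromosome 9, for example, it was 100% of 20 windows at the long arm end and 48% of 100 at the short arm end, and on chromosome 20 it was 37.5% of 40 and 0 of 57.

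**Figure D4:**
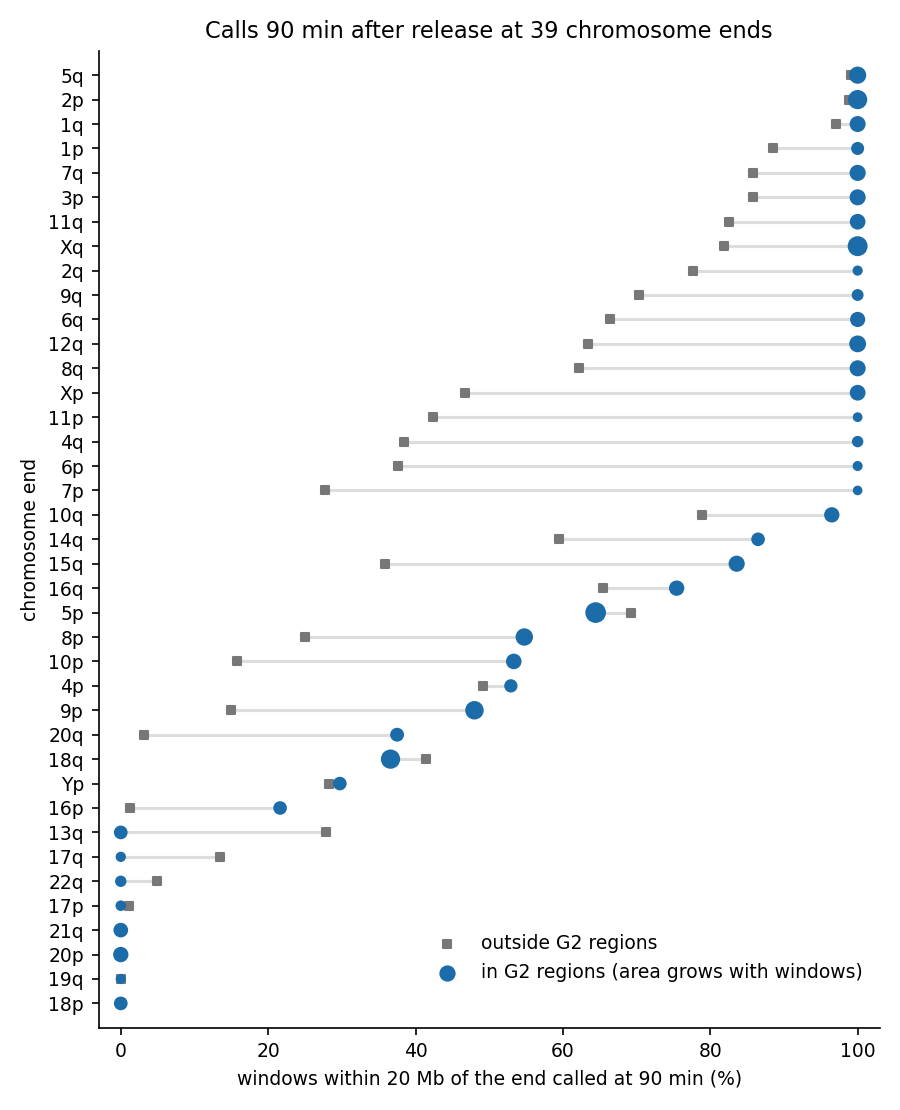
For 39 chromosome ends (p and q for short and long arm, y axis), the share of windows within 20 Mb that were called at 90 min is given in percent on the x axis, with circles for windows in G2 regions, whose area grows with their number, and squares for windows outside G2. At 18 ends the circle stands at 100% and at 8 ends at 0, where the windows outside G2, pooled over these ends, were called at 66.2% and 6.03%, with single ends out of that order, such as 7p and 13q at 27.8% each.

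Going inward from an end, the first G2 region without a call had a median distance of 28.97 Mb, and the farthest region with a call one of 27.2 Mb, over the 31 of 42 ends with G2 regions that had both. On 1p all of the first 10 regions were called and the next, 73.2 Mb from the end, was not, whereas on 13q the first region, 7.12 Mb from the end, was already missed. In the 44 partly called regions, the called windows lay nearer to the chromosome end than the uncalled ones in 27, or 61.4% (46.6 to 74.3%), an interval that includes equal shares.

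Calls also ran on across the gaps between G2 regions. Between 69 pairs of neighbouring G2 regions that were both covered whole, the gap was covered whole as well in 37, and 68.6% of gap sequence was called. Between 230 pairs of neighbours that were both missed, no gap was covered whole and 0.547% of gap sequence was called. Position was not held equal between these pairs. Regions covered whole had a median distance of 10.9 Mb from an end and missed regions one of 47.6 Mb. Windows outside G2 were called at 66.2% at the ends called throughout and at 4.38% beyond 20 Mb. Seen from the 90 min side, 96 of 204 90m G1 regions touched no G2 region and had a median size of 0.6 Mb, 82 touched 1 G2 region and had a median of 1.4 Mb, and 26 touched at least 2 and had a median of 7.6 Mb. These 26 took in 72 G2 regions. The most, 6, lay in chrX:135600001-154100000, an 18.5 Mb region that ends close to the tip of the long arm, of which 66.5% was G2 sequence. A longer 90m G1 region can touch more G2 regions, so the rise in median size with the number touched is partly built in.

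The 3 longest G2 regions without a call at 90 min were all rich in AT. The first, chr5:21500001-31300000 (9.8 Mb, 35.1% GC, centred 26.4 Mb from the end), held the genes of the cell adhesion proteins CDH12 and CDH9. The second, chr21:19300001-26800000 (7.5 Mb, 35.2% GC, 25.1 Mb from the end), held NCAM2, a neural cell adhesion molecule, and CHODL, a membrane lectin. The third, chr4:58000001-65400000 (7.4 Mb, 35.4% GC, 61.7 Mb from the end), held ADGRL3, an adhesion receptor of the latrophilin family, and TECRL. By 180 min the first was called over 100% of its length and the third over 95.9%, but the second over 24%.

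The 3 longest regions with at least 80% called were each called over their full length. They were chr5:159900001-167700000 (7.8 Mb, 37.5% GC, 17.1 Mb from the end), with the synaptic adhesion gene TENM2 and the phospholipid transporter gene ATP10B, and chrX:139100001-146800000 (7.7 Mb, 37.7% GC, 12.3 Mb from the end), with LDOC1 and the cancer-testis antigen gene MAGEC3. The other was chr8:134600001-140800000 (6.2 Mb, 41.3% GC, 8.66 Mb from the end), with FAM135B and the collagen gene COL22A1. Chromosome 5 thus held both the longest G2 region that was called again and the longest that was not, toward opposite ends. Among the regions with 20 to 80% of their length called, the longest was chr9:7500001-12600000 with PTPRD, a receptor tyrosine phosphatase, and DMAC1, called over 33.3% of 5.1 Mb. Next came chr14:84700001-88800000 with GALC, a lysosomal galactosylceramidase, and the potassium channel gene KCNK10, called over 24.4%, and chr11:78400001-82300000 with TENM4, called over 43.6%.

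Exceptions to the order by distance were found on both sides. Of 76 regions centred within 10 Mb of an end, 16 were not called, 6 of them on chromosome Y, 2 each on chromosomes 16, 20 and 21, and 1 each on 13, 15, 18 and 19. The longest were chr18:4100001-7600000 (3.5 Mb), with the chromatin protein gene L3MBTL4 and the membrane skeleton gene EPB41L3, chr20:6200001-7900000 (1.7 Mb), with the growth factor gene BMP2, and chr16:6900001-8500000 (1.6 Mb), with no protein-coding gene. At 180 min these were called over 80%, 76.5% and 75% of their length. Of 168 regions centred beyond 40 Mb, 14 were called, 4 on chromosome 1, 4 on chromosome 7, 2 on chromosome 3 and 1 each on 5, 6, 9 and 11. Among the 8 of them with at least 80% called, the longest were chr3:54200001-56200000, with the calcium channel subunit gene CACNA2D3 and LRTM1 (80% called), chr1:57300001-58800000, with DAB1, an adaptor of reelin signalling, and the complement gene C8A (80%), and chr5:135500001-136900000, with the proteoglycan gene SPOCK1 and the cation channel gene TRPC7 (92.9%). Their GC lay between 41.0% and 41.5%, above the 37.7% median of the 154 uncalled regions at that distance.

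Genes were sparse in both parts of the G2 list. In G2 sequence that was called again there were 337 protein-coding genes (a gene counts when 80% or more of it is inside), or 1.72 per Mb (exact Poisson interval 1.54 to 1.92), and in G2 sequence that was not called again 566, or 1.34 per Mb (1.23 to 1.45). The order held within 20 Mb of an end, at 1.97 (1.74 to 2.21) against 1.62 (1.31 to 1.99) with overlapping intervals, and turned beyond 20 Mb, at 1.08 (0.821 to 1.39) against 1.29 (1.18 to 1.41), again with overlap. With all annotated gene types the densities were 11.7 and 10.4 per Mb. The 90m G1 sequence outside G2 was far denser, with 3091 protein-coding genes or 9.33 per Mb, beside 8.29 per Mb in sequence outside both lists. Within 20 Mb of an end it had 9.48 per Mb against 12.1 outside both lists, and beyond 20 Mb 8.75 against 7.38. Gene starts hardly ordered the G2 windows within 20 Mb of an end, where 70.0% of windows without a start, 76.5% of windows with 1 and 71.2% of windows with more were called. Beyond 20 Mb the share was 13.1% (12.0 to 14.2%) without a start, 15% with 1 and 4.11% (1.41 to 11.4%) of 73 windows with more. The median length was 28.8 kb for the genes called again and 26.4 kb for the genes that were not.

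Counted gene by gene, 918 of 20162 protein-coding genes (4.55%) lay in G2 regions. Of these, 337 were called again (at least 80% of their length in 90m G1 regions), 567 were not (at most 20%) and 14 were mixed. The distance of a gene is that of the window at its centre. The share called again, 36.7%, stands beside 17.2% of all protein-coding genes called at 90 min. Olfactory receptor genes, which encode odorant receptors and lie in clusters, made up the largest group, with 139 of 412 (33.7%) in G2 regions. Of these, 45 were called again (32.4%, interval 25.2 to 40.5%, which includes 36.7%). All 45 came from the cluster on chromosome 1 that lies 0.401 to 1.601 Mb from the long arm end. The 94 others came from clusters at least 33.9 Mb from an end, among them 57 genes on chromosome 11, 14 on chromosome 14 and 13 in a second cluster on chromosome 1. Genes of 1 cluster share their windows, so they amount to a few places rather than 139.

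Zinc finger genes of the ZNF family, many of them transcriptional repressors in clusters, had 36 of 509 members (7.07%) in G2 regions. Among all protein-coding genes this share was 4.55%. Of the 36, 14 were called again (38.9%, interval 24.8 to 55.1%, which includes the 36.7% of all protein-coding genes in G2 regions). The 14 were 7 on chromosome 12 within 0.302 Mb of its end, 3 on chromosome 4 within 0.350 Mb, 3 on chromosome 5 between 2.47 and 2.57 Mb from its end, and ZNF385D on chromosome 3, 21.95 Mb from its end. Of the 22 not called again, 16 lay on chromosome 19, some of them 1.98 Mb from its end, 5 on chromosome 7 and 1 on chromosome 18. Keratin and keratin-associated protein genes, which encode structural proteins of epithelia and hair, had 32 of 149 members (21.5%) in G2 regions. All 32 were in 1 cluster on chromosome 21, 15.9 to 16.5 Mb from its end, and none was called again. They amount to 1 place, set beside 36.7% called again among all protein-coding genes in G2 regions.

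GABA-A receptor subunit genes, which encode the parts of a chloride channel gated by the transmitter GABA, had 10 of 19 members in G2 regions. Of these, 5 were called again (50%, interval 23.7 to 76.3%, which includes the 36.7% of all protein-coding genes in G2 regions) and 5 were not. GABRB2 and GABRA6 on chromosome 5, at 20.1 and 19.9 Mb from its end, were called again over 100% of their length, as was GABRE on chromosome X. GABRG1, GABRA2 and GABRA4 on chromosome 4 (46.1 to 47.0 Mb from its end) and GABRA5 on chromosome 15 (75.4 Mb) were not called. Type II cadherins, calcium-dependent adhesion proteins, had 9 of 12 genes in G2 regions. Of these CDH11 on chromosome 16 was called again, over 87.7% of its length, a share of 1 in 9 whose interval, 1.99 to 43.5%, includes 36.7%. CDH18, CDH12, CDH10 and CDH9 on chromosome 5, CDH8 on chromosome 16 and CDH20, CDH7 and CDH19 on chromosome 18 were called over 0% of theirs, although the last 3 lay within 20 Mb of an end.

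Long genes of neuronal adhesion and of fragile sites, places prone to breakage under replication stress, had 28 of 40 members in G2 regions. Of these, 12 were called again (42.9%, interval 26.5 to 60.9%, beside 36.7% of all protein-coding genes in G2 regions), 11 were not and 5 were mixed. Among the longest called again were CNTNAP2 (2305 kb, a neurexin family gene), CSMD1 (2060 kb) and DPP6 (1241 kb, a potassium channel partner). All but 1 of the 12, SORCS3 at 28.8 Mb, lay within 12.2 Mb of an end. The longest not called again were DMD (2242 kb, the dystrophin gene), MACROD2 (2058 kb), PCDH15 (1825 kb, a protocadherin of the inner ear) and ROBO2 (1743 kb, an axon guidance receptor), and MACROD2 was the nearest of the 11 to an end, at 15.1 Mb on chromosome 20. The mixed genes PTPRD, NRXN3, KCNIP4, AUTS2 and GPC6 were called over 38.5%, 68.5%, 46.7%, 41.4% and 55.9% of their length. No gene of the clustered protocadherins (53 listed), the interferon alpha family (13), the cytosolic ribosomal proteins (84), the lamina and envelope proteins (13) or the cell cycle list (9) lay in a G2 region. G2 regions held 4.55% of all protein-coding genes, a share at which lists as short as 9 or 13 genes may hold none. The 53 clustered protocadherin genes lie on 1 chromosome, as do the 13 interferon alpha genes, so these lists amount to few places.

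**Figure D5:**
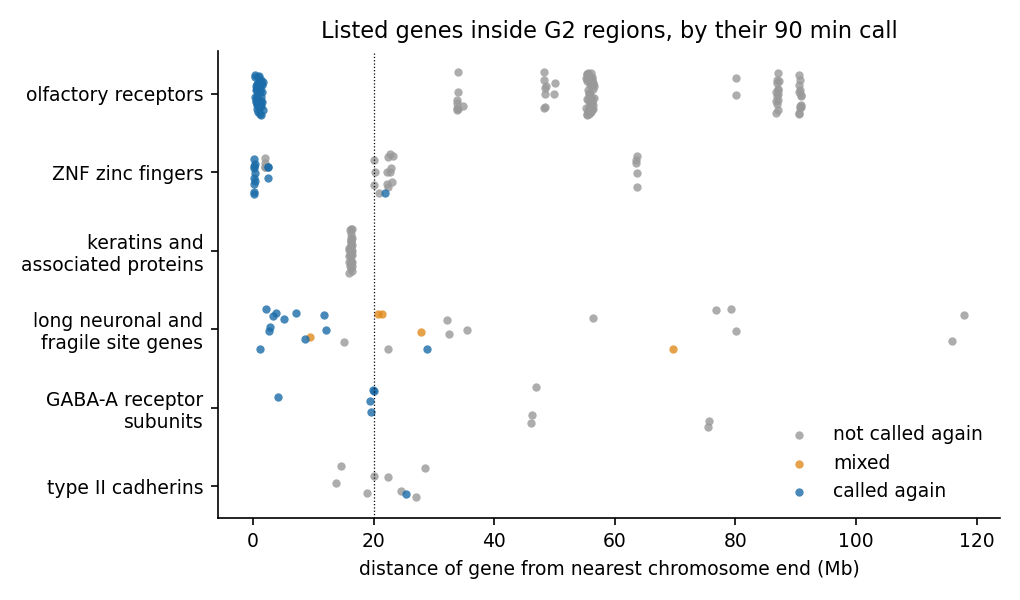
Each point is a gene in a G2 region from 1 of 6 lists (y axis, scattered for view), at its distance from the nearest chromosome end in Mb (x axis), coloured by whether it was called again at 90 min, with a dotted line at 20 Mb. The 45 olfactory receptor genes called again sit at the left edge and the 94 others beyond 33 Mb, and all 32 keratin-associated genes at about 16 Mb are uncalled.

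The windows that both lists shared differed from those of either list alone. The 1955 windows in both had a median GC of 39.9%, a median distance of 11.8 Mb and 8.68 CpG per kb. The 4225 windows in G2 only had 36.9%, 43.8 Mb and 6.45 CpG per kb, and the 3320 windows in 90m G1 only 45.5%, 9.65 Mb and 14.8 CpG per kb. In GC and CpG the shared windows lay between the windows of either list alone, and in distance they were closer to the windows in 90m G1 only. Their median GC was not particular to them. The 19226 windows with sequence in neither list had 39.9% as well, with 42.7 Mb and 9.88 CpG per kb.

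G2 windows missed at 90 min were mostly called later. At 180 min 78.6% of them were called, against 87.1% of the windows called at 90 min, and in asynchronous G1 the shares were 90.8% and 93.0%. Near the ends the gap at 180 min was larger, 72.5% of 585 missed windows against 89.0% of 1408 called ones, and beyond 20 Mb it was smaller, 79.5% against 82.1%. In asynchronous G1 the near shares were 93.8% and 93.7%. Of the 90m G1 windows outside G2, 11.3% were called at 180 min and 6.81% in asynchronous G1.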

How the data were processed

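The 8 HCT116 samples were libraries of 2 replicates, input and pull-down, at G2 and 90m G1. Per the labels and the methods of the study, reads were aligned to hg19 with Bowtie2 2.3.2, counted in windows with bedtools 2.26.0, scaled to equal totals, turned into a z-score of log2(pull-down/input), and called with a 3-state Hidden Markov Model. What the authors deposited is the start and end of each region, and the lists used here hold neither signal nor counts, so depth is unknown for every call. Reads and signal tracks were not analysed here. The study's methods describe intersecting the calls of replicates. The G2 list carries the name consensus and the 90m G1 list does not.

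Regions were placed on 30970 windows of 100 kb over 24 chromosomes. GC, CpG and sequence came from the hg19 assembly, with windows under 50% known bases left out of the windows outside G2, and genes from GENCODE release 44 lifted to hg19. Intervals are Wilson for shares, order statistics for medians and exact Poisson for gene densities, at 95%. No test was run, because each stage is 1 list. The calculations used Python 3.11.15, numpy 2.4.6, pandas 2.3.3, scipy 1.17.1 and matplotlib 3.10.9, and were tested on simulated lists.

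The rule for regions named took the 3 longest of each class and the 2 longest genes in each, and the gene lists are described by their members in G2 regions, longest first. Members and lists were chosen with earlier results of these data known. The sequences were to be the 300 bases at the centre of 3 regions, but these had 33.7%, 48.3% and 47% GC. The second was far from the 35.1% of its region. The first was under the 37.5% of its region but between the quartiles of that region's blocks, 32.7 and 41.7%. Blocks at the region median were taken instead, a choice made after these values were seen. One of these sequences and some listed genes are not reported here. Of 14 deposited lists, 5 were used. Alternatives were other overlap rules, size limits, joined gaps, distance limits, gene shares, autosomes only, means for medians and each chromosome left out, and G2 windows also called in G1 and S were added after the data were seen.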

Additional observations from a re-analysis of the deposited data

How the results depend on the processing

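Each of 16 values was recomputed under its alternatives, which gave 241 further values. Of these 201 stayed inside the interval of the value reported and 40 did not. Leaving out each chromosome in turn gave 168 of the 241 values, and 15 of these 168 left the interval. Most of the 40 thus came from the other settings. Regions called again and not called again kept their order in distance and GC under each alternative run, while their median sizes were equal, at 1 Mb, with at least 50% of a region required. The cause of these shifts was not tested beyond what each setting changes by construction. Requiring 50% or 80% of a region gave 30.9% and 27.7% of G2 regions called again. Near and far G2 windows were called at 81.2% and 21.3% with a limit of 10 Mb, at 56.8% and 6.73% with 30 Mb, and at 64.7% and 5.40% with 20% of the chromosome length. Autosomes only gave 68.4% near the ends. Outside G2 the same 3 limits gave 53.8% and 8.28%, 32.2% and 2.08%, and 36.2% and 1.09%. Means in place of medians gave sizes of 1.65 and 1.32 Mb, a GC of 38.5% for regions not called again and a distance of 18.1 Mb for regions called again. Genes per Mb in G2 sequence called again and not called again were 1.53 and 1.23 with whole genes inside, 11.7 and 10.4 with all gene types, and 1.97 and 1.62 within 20 Mb of an end.

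Leaving out each chromosome in turn, the G2 regions called again ranged from 33.8 to 36.5%, the G2 base pairs called again from 30.0 to 32.5%, and the 90m G1 base pairs in G2 regions from 35.8 to 38.6%. Near the ends the range was 67.6 to 74.2% in G2 and 38.1 to 43.4% outside, and beyond 20 Mb it was 12.1 to 14.1% and 3.60 to 4.71%. G2 windows also called in G1 and S, a choice made after seeing the data, gave 32.2% of base pairs, 70.7% near and 13.3% far.

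No paired analysis was possible because each list was merged over its replicates before deposit. With 1 list per stage, neither the variation between replicates nor the strength of signal at an uncalled window can be given from the lists. Neighbouring windows share 1 signal, so the intervals are narrower than those between experiments would be.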
